A study of Rattus norvegicus with 8 samples.

Results

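The genes described here are the ligands, receptors and feedback inhibitors of the FGF, ERBB and PDGF systems, as read in cultures of rat oligodendrocyte progenitor cells (OPCs). They were taken by gene symbol from the annotation of the array and comprise the numbered Fgf genes, Fgfr1 to Fgfr4, the EGF family ligands, the neuregulins, Egfr and Erbb2 to Erbb4, Pdgfa to Pdgfd, Pdgfrb, and the Sprouty and Spred genes. This rule found 48 genes among the 15037 genes with a single symbol on the array, each read by 1 probe set. The rule uses no measured value. Fgf4, Nrg3, Spry1 and Spred3 were not analysed here. Pdgfra, the other PDGF receptor gene, is outside the rule and was not analysed either.

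Cultures treated for 3 d with IL-4 (20 ng/mL) were compared with cultures that received the PBS vehicle over the same time, on 4 arrays each. All 8 cultures came from the brains of Sprague Dawley rat pups of both sexes, taken at postnatal day 1-2, and carried no genetic modification that the labels name. According to the methods, mixed glia were grown in serum, microglia were shaken off, and the OPCs were then shaken off the astrocyte layer beneath them, so that other glia may remain in such a culture. The OPCs were kept in a defined medium without serum. The methods list PDGF and basic FGF among the supplements of the OPC medium, whereas the recipe in the labels holds neither, and whether the cultures on the arrays received them is not stated.

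FGFs and PDGFs are secreted growth factors that bind receptor tyrosine kinases, and in the oligodendrocyte lineage PDGF-AA and FGF2 are the classical mitogens that keep progenitors dividing and immature. ERBB receptors pass on signals of the EGF family and of the neuregulins, which axons supply to Schwann cells and oligodendrocytes. All these receptors feed the RAS, RAF, MEK and ERK cascade and the PI3K and AKT pathway, and Sprouty and Spred proteins restrain the ERK branch after it has been switched on.

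The values are log2 RMA signals, on which a difference of 1 is a 2-fold change, and differences are IL-4 minus PBS. They were tested with limma, and p was adjusted over all 23188 probe sets by the Benjamini-Hochberg method. Array medians lay between 6.13 and 6.16. As a guide to which genes gave a signal at all, the 95th percentile of the mean levels of 1057 olfactory receptor probe sets, whose genes OPCs are not known to use, was taken as a limit and lay at 5.41. Of the 48 genes, 22 were above this limit under both treatments and 26 were under it in both. For these 26 the size of a difference is not exact.

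Genes of several cell types were measured in these cultures. The OPC list held 9 genes, of which Olig1, Olig2, Sox10 and Cnp are also expressed by mature oligodendrocytes. Its brightest gene was Cnp, with 18.70 with IL-4 and 18.38 with PBS. The list averaged between 14.25 and 14.39 on the IL-4 arrays and between 14.36 and 14.56 on the PBS arrays over the 9 genes. Of these, 0 were higher and 2 were lower with IL-4 in limma, Sox10 (-0.46, adjusted p = 0.0115) and Nkx2-2 (-0.84, adjusted p = 0.00189), 2 transcription factors of the lineage, and Olig2, which did not pass, was at 16.15 with IL-4 and 15.92 with PBS. Of the 11 myelin genes 5 were higher and 1 was lower with IL-4, of the 13 microglia and macrophage genes 6 were higher and 2 were lower, and of the 8 astrocyte genes 3 were higher and 2 were lower. Summed over the list, the microglial level was 15.59 to 15.71 on the IL-4 arrays and 13.96 to 15.52 on the PBS arrays. The astrocyte sum was 14.07 to 14.31 with IL-4 and 13.26 to 13.83 with PBS, and the neuronal sum was 13.96 to 14.05 with IL-4 and 13.73 to 14.59 with PBS. In such sums the brightest gene weighs most, which for the neuronal list was Map2 (13.58 with IL-4 and 12.98 with PBS). Of the 10 neuronal genes 1 was higher and 3 were lower, and of the 8 endothelial genes, 5 of them under the limit, 2 were higher and 1 was lower. For all these lists, the shares over all probe sets were 11.97% higher and 19.7% lower (31.6% either way). As an unweighted average over the list, PBS array 1 had the highest neuronal level (9.25, next to 9.16 on PBS array 3). It also had the lowest myelin average (14.42) and the highest OPC average (14.56). PBS array 4 had the highest microglial level (9.96). On the summed microglial level, every IL-4 array lay above every PBS array. The brightest gene in the IL-4 sum was C1qb (14.94, and 12.98 with PBS). On the unweighted average, PBS array 4 (9.96) lay above all IL-4 arrays (9.22 to 9.33). Next to the 6 higher genes, the 2 lower ones were Cx3cr1 (-1.46) and, under the limit, Tmem119 (-0.62). The part of these other cells in the results below was not tested. In RNA of whole cultures, fewer cells of a type and less RNA per cell cannot be told apart.

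With IL-4, 9 of the 48 genes were higher, 8 were lower and 31 did not pass. Over all probe sets 11.97% were higher and 19.7% were lower (31.6% either way), so 17 of 48 stood close to the background of this comparison. On 7 genes all IL-4 arrays lay above all PBS arrays and on 7 they lay below, 14 of 48, against shares of 12.2% and 20.6% of all probe sets, or 32.8% without overlap. The median difference was 0.06 over the 48 genes and -0.07 over all probe sets. Among the 22 genes above the limit, Fgf2, Pdgfc and Spry2 were higher and Fgfr1, Fgfr3 and Spry4 were lower. Of all probe sets above the limit, 11.2% were higher and 22.04% were lower. Among the 26 genes under the limit, 6 were higher and 5 were lower, and of the olfactory receptor probe sets 14.7% and 11.4% were. The genes that changed more than 2-fold were 3, namely Fgfr1, Spry4 and, under the limit, Pdgfrb, all 3 lower, and 2.34% of all probe sets did so in that direction.

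**Figure D1:**
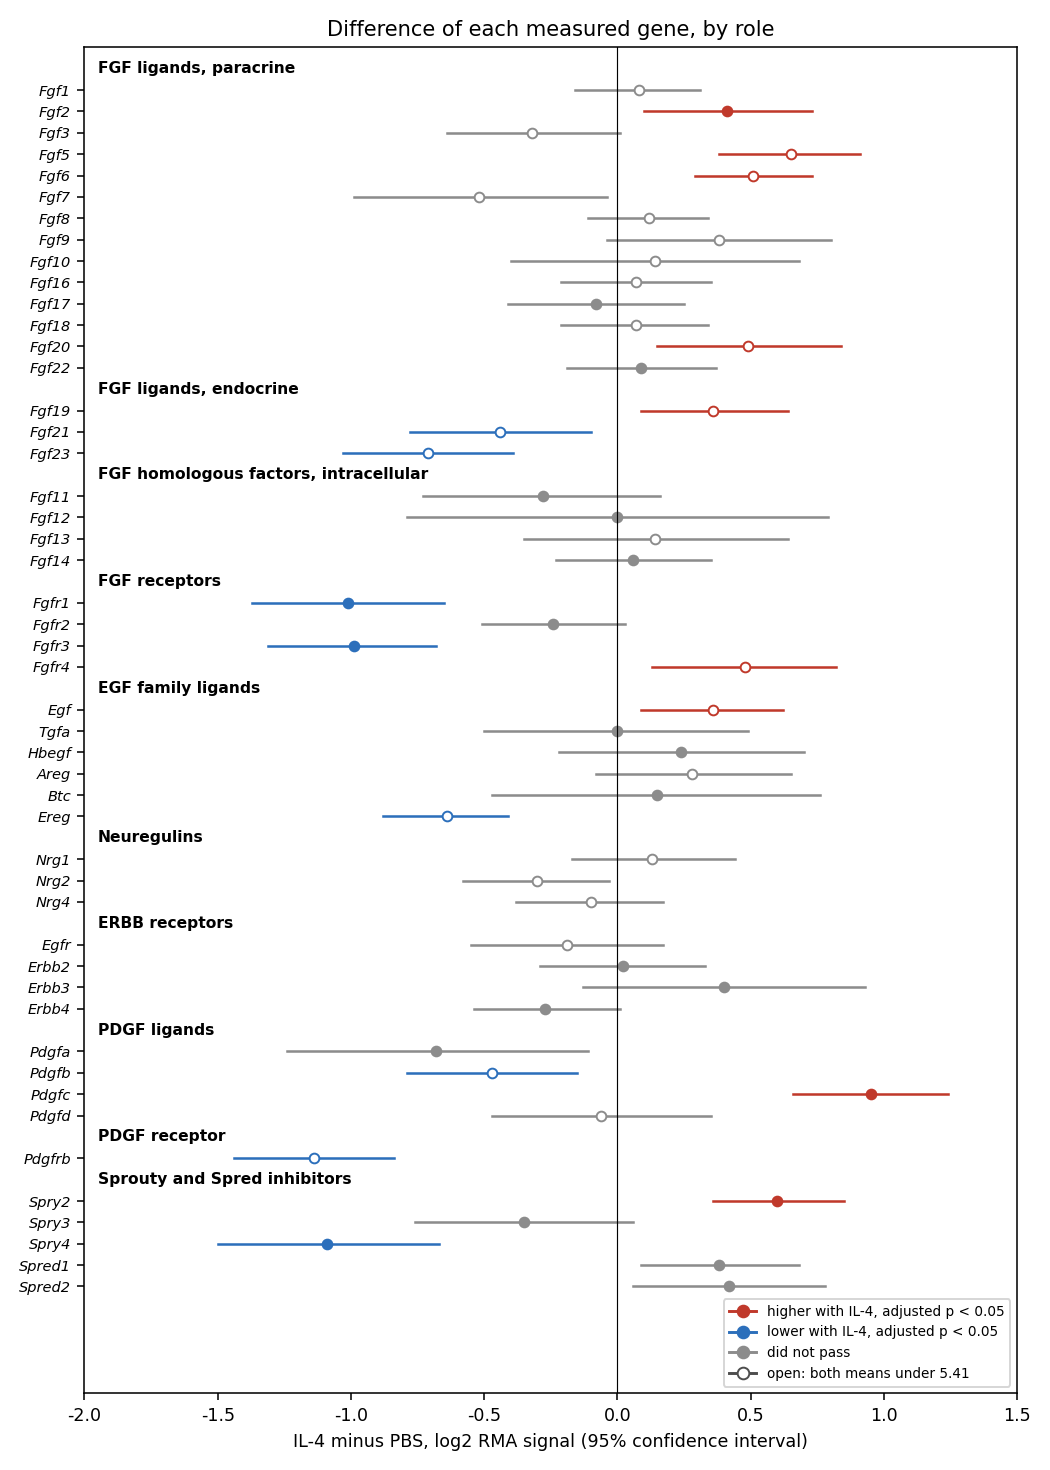
Differences of the 48 genes between IL-4 and PBS (x axis, log2 RMA signal, 4 arrays per treatment), grouped by role. Points are differences and lines are 95% confidence intervals; red marks genes higher with IL-4, blue genes lower with IL-4, grey genes that did not pass, and open points genes under 5.41 in both. Fgfr1, Fgfr3, Pdgfrb and Spry4 lie near -1 and Pdgfc near 0.95, while the 4 ERBB receptors lie between -0.27 and 0.40.

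Of the 4 FGF receptors, Fgfr1 and Fgfr3 fell to about 0.5 times their PBS level, Fgfr2 did not pass, and Fgfr4, under the limit, was higher. Fgfr1 encodes the receptor through which FGF2 acts on many cell types. Its signal was 12.95, 12.68, 12.76 and 12.95 on the IL-4 arrays, against 14.22, 13.47, 14.01 and 13.68 on the PBS arrays. Every IL-4 array lay below every PBS array, and the difference was -1.01 ± 0.16 (SE, adjusted p = 0.00142), or 0.497 times the PBS level.

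Fgfr3 encodes a receptor found on OPCs and astrocytes. It had 7.05, 7.06, 6.96 and 7.17 with IL-4, against 8.43, 7.84, 8.11 and 7.84 with PBS. The arrays did not overlap here either, and the difference was -0.99 ± 0.14 (SE, adjusted p = 7.79e-04). Of other astrocyte genes, Slc1a3 (-1.03) and Gja1 (-0.51) were lower and Gfap (1.05), Slc1a2 (1.63) and S100b (2.39) were higher. For both receptors PBS array 1 was the highest array. It also held the highest neuronal marker average (9.25), closely followed by PBS array 3 (9.16). The same array had the lowest myelin average (14.42, with 14.84 to 15.65 on the other PBS arrays) and the highest OPC average (14.56). A link of these averages to the receptor levels was not tested. Without PBS arrays 1 and 4, a choice made after seeing the data, the difference was -0.91 for Fgfr1 (adjusted p = 0.0081) and -0.92 for Fgfr3 (adjusted p = 0.00246).

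Fgfr2, which differentiated oligodendrocytes are known to express, had 14.19, 14.01, 14.11 and 14.20 with IL-4, against 14.42, 14.61, 14.25 and 14.19 with PBS. The treatments overlapped at PBS array 4, and the difference was -0.24 (95% confidence interval -0.51 to 0.03, adjusted p = 0.157). The intervals of Fgfr1 (-1.37 to -0.65) and Fgfr3 (-1.31 to -0.68) lay below this one, and the difference between the receptors was not tested. Fgfr4 gave 5.19, 5.33, 4.97 and 5.07 with IL-4 and 4.48, 4.91, 4.92 and 4.34 with PBS (0.48 ± 0.16, adjusted p = 0.0387), all under the limit, and it passed in 3 of the 8 fits that left out an array.

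**Figure D2:**
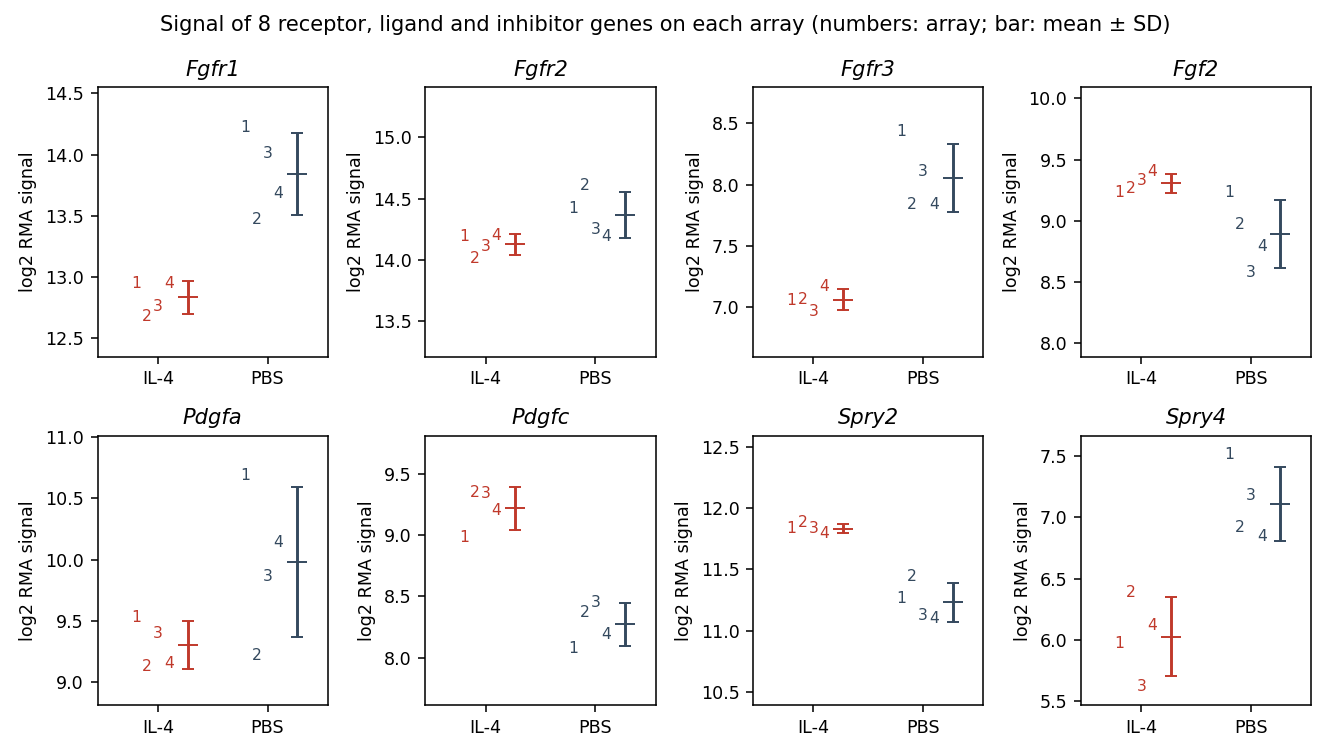
log2 RMA signal (y axis, equal span in all panels) of 8 genes on each of the 4 IL-4 arrays (left, red) and 4 PBS arrays (right, dark). Each digit is 1 array at its value and the bar is the mean ± SD. Fgfr1, Fgfr3 and Spry4 lie lower and Pdgfc and Spry2 higher on every IL-4 array than on any PBS array, while Fgfr2, Fgf2 and Pdgfa overlap.

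Of the 21 Fgf genes, 5 were higher and 2 were lower, next to 31.6% of all probe sets called either way, and 1 of these 7, Fgf2, was above the limit. Of the other 6, Fgf5, Fgf6 and Fgf23 passed in all 8 fits that left out an array, Fgf20 passed in 3, Fgf21 in 2 and Fgf19 in 1. Fgf2 is the basic FGF used in culture to expand OPCs. It had 9.23, 9.26, 9.33 and 9.40 with IL-4, against 9.23, 8.97, 8.58 and 8.79 with PBS, so that IL-4 array 1 and PBS array 1 met at the same value. The difference was 0.41 ± 0.14 (SE, adjusted p = 0.0472), and the call held in 1 of the 8 fits that left out an array. Without PBS array 3 it was 0.31 (adjusted p = 0.116).

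The other paracrine ligands above the limit, Fgf17 (5.52 with IL-4 and 5.60 with PBS) and Fgf22, a ligand known from the formation of synapses (7.14 with IL-4 and 7.05 with PBS), did not pass. Under the limit, Fgf5 was higher, with 4.19, 4.21, 4.12 and 3.97 on the IL-4 arrays against 3.26, 3.46, 3.65 and 3.53 on the PBS arrays (0.65, adjusted p = 0.00274). Fgf6, a ligand of muscle, was higher by 0.51, with 3.46, 3.38, 3.38 and 3.38 against 2.90, 2.80, 2.96 and 2.90 with PBS (adjusted p = 0.00355). Neither gene reached the limit on any array. Fgf20 was higher by 0.49, with 4.21, 4.72, 4.49 and 4.43 against 3.61, 3.95, 4.24 and 4.07 with PBS (adjusted p = 0.0346), and its arrays overlapped. The 8 paracrine ligands left, Fgf1, Fgf3, Fgf7, Fgf8, Fgf9, Fgf10, Fgf16 and Fgf18, were all under the limit and did not pass. Fgf7, the keratinocyte growth factor, had 4.07, 4.09, 3.75 and 3.93 with IL-4 and 4.04, 5.11, 4.63 and 4.12 with PBS. Its difference was -0.52 (adjusted p = 0.0908), and it was -0.66 without PBS array 1 (adjusted p = 0.043) and -0.30 without PBS array 2 (adjusted p = 0.187). It passed in 1 of the 8 fits that left out an array.

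The 3 endocrine FGFs, which reach distant organs through Klotho coreceptors, were under the limit throughout. Fgf19, the rat gene also called Fgf15, had 3.14, 3.49, 3.48 and 3.50 with IL-4 and 3.13, 3.10, 2.85 and 3.08 with PBS (0.36, adjusted p = 0.0462). Fgf21, a hormone of fasting metabolism, had 4.30, 3.77, 3.85 and 3.70 with IL-4 and 4.11, 4.40, 4.32 and 4.55 with PBS (-0.44, adjusted p = 0.0498). Fgf23, the phosphate-regulating hormone of bone, had 3.22, 3.22, 3.24 and 3.03 with IL-4 and 3.53, 4.12, 4.11 and 3.79 with PBS (-0.71, adjusted p = 0.00477). Of the 3, Fgf19 and Fgf23 did not overlap between treatments.

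The 4 FGF homologous factors are not secreted and bind voltage-gated sodium channels inside the cell. None of them passed. Fgf12 had 10.32, 9.65, 9.89 and 10.09 with IL-4, against 10.96, 9.68, 10.39 and 8.92 with PBS, with means of 9.99 under both treatments and an interval of the difference from -0.79 to 0.79. The SD was 0.29 with IL-4 and 0.88 with PBS, and its highest value was on PBS array 1. Tubb3, a neuronal tubulin, was at 12.77 there, while its other PBS values ran between 9.78 and 11.65. Syt1, Snap25 and Gap43 were also highest on that PBS array. Map2, Nefl and Stmn2 were lowest on it, and Rbfox3, Nefm and Dcx were highest on another PBS array. Fgf11 (-0.28) and Fgf14 (0.06) were above the limit and Fgf13 (0.14) was under it.

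The 4 PDGF ligands did not move together. Pdgfc encodes a PDGF that must be cut by a protease before it binds its receptor. It was higher with IL-4, with 8.98, 9.35, 9.34 and 9.20 against 8.07, 8.37, 8.45 and 8.19 with PBS. No array of one treatment reached the range of the other, and the difference was 0.95 ± 0.13 (SE, adjusted p = 5.98e-04), or 1.93 times the PBS level. Plat, tissue plasminogen activator, which is known to cut PDGF-CC, was higher as well, with 9.22, 9.57, 9.80 and 9.71 on the IL-4 arrays and 8.54, 8.86, 8.08 and 8.30 on the PBS arrays (1.13 ± 0.18, adjusted p = 0.00137).

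Pdgfa, the ligand best known as an OPC mitogen, had 9.53, 9.13, 9.40 and 9.15 with IL-4, against 10.69, 9.22, 9.86 and 10.14 with PBS. The IL-4 arrays spanned 9.13 to 9.53, and of the PBS arrays number 2 fell within this span. The difference was -0.68 ± 0.26 (SE, adjusted p = 0.0665) and did not pass. Leaving out PBS array 2 gave -0.93 (adjusted p = 0.00757) and leaving out PBS array 1 gave -0.44 (adjusted p = 0.147). With PBS arrays 1 and 4 both left out it was -0.24 (adjusted p = 0.409). It passed in 3 of 17 alternatives, of which the block by replicate number (adjusted p = 0.0274) is one, although those numbers do not pair the arrays. Pdgfb was under the limit and lower, with 4.42, 4.96, 4.50 and 4.38 on the IL-4 arrays and 4.95, 5.02, 4.98 and 5.19 on the PBS arrays (-0.47, adjusted p = 0.029), and passed in 3 of the 8 fits that left out an array. Pdgfd was also under the limit, with means of 4.83 with IL-4 and 4.89 with PBS.

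Pdgfrb encodes the PDGF receptor of pericytes and fibroblasts. It gave 3.34, 3.22, 3.29 and 3.05 with IL-4, against 4.58, 4.49, 4.35 and 4.05 with PBS, without overlap. The difference was -1.14 ± 0.14 (SE, adjusted p = 2.96e-04), between levels that were all under the limit of 5.41. Of the 14 pericyte and fibroblast genes, 9 were under the limit under both treatments, 3 were higher and 3 were lower with IL-4. Of all probe sets, 11.97% were higher and 19.7% lower. The 3 lower genes of the list, Rgs5 (4.07 with IL-4 and 4.92 with PBS), Col3a1 (3.51 with IL-4 and 4.61 with PBS) and Des (3.42 with IL-4 and 3.99 with PBS), were all among the 9 under the limit. Of the 3 higher ones, Acta2 (10.02 with IL-4 and 9.38 with PBS) and Tagln (7.82 with IL-4 and 6.81 with PBS), contractile genes of smooth muscle, were above the limit and Kcnj8 (4.39 with IL-4 and 3.81 with PBS) was under it. The list averaged 5.60 to 5.73 on the IL-4 arrays and 5.67 to 5.79 on the PBS arrays, and its sum was 15.18 to 15.38 with IL-4 and 14.95 to 15.96 with PBS. That sum was carried mainly by Mcam (15.18 with IL-4 and 15.49 with PBS), which did not pass.

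None of the 4 ERBB receptors and none of the 3 neuregulins passed. Erbb3, the neuregulin receptor whose own kinase is weak, had 10.38, 10.56, 10.49 and 10.27 with IL-4, against 9.43, 10.82, 9.92 and 9.93 with PBS. All IL-4 arrays lay above 3 of the PBS arrays and below PBS array 2, which also had the highest myelin gene level of the PBS arrays (15.65). The difference was 0.40 (95% confidence interval -0.13 to 0.93) with all arrays. Leaving out PBS array 2 gave 0.67 (adjusted p = 0.0101) and leaving out PBS array 1 gave 0.20 (adjusted p = 0.512). With PBS arrays 1 and 4 both left out it was 0.06 (adjusted p = 0.879), and it passed in 1 of 17 alternatives. Erbb4, the neuregulin receptor with an active kinase, had 11.72, 11.83, 11.76 and 11.72 with IL-4, against 12.26, 12.02, 11.76 and 12.05 with PBS. PBS array 3 lay within the range of the IL-4 arrays, and the difference was -0.27 (interval -0.54 to 0.01). It was -0.35 without that array (adjusted p = 0.0491), which is 1 of 17 alternatives in which it passed, and -0.13 without PBS arrays 1 and 4 (adjusted p = 0.438). Erbb2, the partner without a ligand of its own, differed by 0.02 (interval -0.29 to 0.33). Egfr was under the limit, with 5.05 ± 0.22 with IL-4 and 5.24 ± 0.28 with PBS (SD, n = 4 each). Nrg1 (4.85 with IL-4 and 4.72 with PBS), Nrg2 (4.13 with IL-4 and 4.44 with PBS) and Nrg4 (4.87 with IL-4 and 4.97 with PBS) were under it too. The Nrg2 arrays did not overlap, but the adjusted p was 0.081.

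Of the 6 EGF family ligands, Tgfa, Hbegf and Btc were above the limit and did not pass. Tgfa, the transforming growth factor that binds Egfr, had 13.35, 13.31, 13.55 and 13.45 with IL-4, against 12.89, 13.20, 13.42 and 14.16 with PBS. The difference was -0.00 (interval -0.50 to 0.49). Hbegf, the heparin-binding member of the family, had 11.13, 11.13, 11.08 and 11.13 with IL-4, against 10.32, 10.80, 10.85 and 11.53 with PBS. Both genes had their highest value on PBS array 4, which had the highest microglial average. Csf1r, the microglial growth factor receptor, was at 10.96 there, while its other PBS values ran between 8.88 and 9.60. A link between these levels was not tested. The Hbegf difference was 0.24 with all arrays, 0.46 without PBS array 4 (adjusted p = 0.0338) and 0.06 without PBS array 1 (adjusted p = 0.831), and it passed in 1 of 17 alternatives. Btc, betacellulin, had means of 12.24 with IL-4 and 12.09 with PBS and an interval of the difference from -0.47 to 0.76.

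The other 3 ligands were under the limit. Egf was higher, with 4.57, 4.51, 4.84 and 4.57 on the IL-4 arrays and 4.44, 4.18, 4.16 and 4.28 on the PBS arrays (0.36, adjusted p = 0.0417), and passed in 1 of the 8 fits that left out an array. Ereg, epiregulin, was lower, with 3.77, 3.60, 3.77 and 3.77 on the IL-4 arrays and 4.44, 4.40, 4.41 and 4.23 on the PBS arrays (-0.64, adjusted p = 0.00153). Neither gene overlapped between treatments. Areg, amphiregulin, did not pass (3.31 with IL-4 and 3.02 with PBS).

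Spry2 and Spry4 moved in opposite directions. Spry2, a feedback inhibitor of FGF and other receptor signals, had 11.83, 11.88, 11.83 and 11.79 with IL-4, against 11.26, 11.44, 11.12 and 11.10 with PBS. Its difference was 0.60 ± 0.11 (SE, adjusted p = 0.00286). Spry4, a related inhibitor, had 5.97, 6.39, 5.62 and 6.12 with IL-4, against 7.51, 6.92, 7.18 and 6.84 with PBS. Its difference was -1.09 ± 0.19 (SE, adjusted p = 0.002). Neither gene overlapped between treatments, and both are widely counted as transcripts that ERK activity raises. Spry3 did not pass (7.07 with IL-4 and 7.42 with PBS).

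Spred1 and Spred2, membrane-bound inhibitors of RAF activation, came close to the threshold. Spred1 had 12.02, 12.10, 11.80 and 11.81 with IL-4, against 11.39, 11.63, 11.37 and 11.81 with PBS, a difference of 0.38 (adjusted p = 0.0513). Spred2 had 9.93, 9.86, 10.18 and 10.09 with IL-4, against 9.62, 9.16, 9.94 and 9.66 with PBS, a difference of 0.42 (adjusted p = 0.0701). On both genes 1 PBS array reached the IL-4 range, array 4 for Spred1 and array 3 for Spred2. After quantile normalization both were higher, by 0.55 (adjusted p = 0.0131) and 0.56 (adjusted p = 0.0203). Spred1 passed in 5 and Spred2 in 3 of 17 alternatives.

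The promoters of Spry2 and Spry4 are shown because this pair moved apart and both hold CCGGAA, a motif bound by ETS factors. That family holds nuclear targets of ERK. They are the 250 bases before the start site from RefSeq (build GRCr8, 5' to 3' on the gene's strand), Spry2 from chr15:89111927-89112176 on the minus strand and Spry4 from chr18:30702547-30702796 on the minus strand. Capitals mark the ETS motif CCGGAA or its reverse complement, and shorter GGAA stretches were neither searched nor marked.
Spry2: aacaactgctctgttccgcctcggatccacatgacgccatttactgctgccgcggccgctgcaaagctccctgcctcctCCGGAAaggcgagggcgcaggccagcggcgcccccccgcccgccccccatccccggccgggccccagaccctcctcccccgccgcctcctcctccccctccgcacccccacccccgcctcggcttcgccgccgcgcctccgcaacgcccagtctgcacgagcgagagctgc
Spry4: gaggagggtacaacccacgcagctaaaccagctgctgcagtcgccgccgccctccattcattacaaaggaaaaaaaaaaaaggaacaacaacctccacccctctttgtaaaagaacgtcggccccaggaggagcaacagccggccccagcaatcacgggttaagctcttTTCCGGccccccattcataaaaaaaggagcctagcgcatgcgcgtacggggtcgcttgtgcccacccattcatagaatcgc
The CCGGAA motif began 171 bases before the start site in Spry2 and 81 bases before it in Spry4, on opposite strands. Promoters were matched for 39 of the 48 genes and searched on both strands over 300 bases, of which 50 lie after the start site. CCGGAA was found in 4 of the 39, namely Egfr, Erbb2, Spry2 and Spry4 (10.3%), and in 15.0% of 33469 rat promoters. The STAT6 motif, TTC and GAA with 4 bases of any kind between them, named for the factor that IL-4 receptors activate, was in 1 of the 39 (Fgf3) and in 7.28% of all. The AP-1 motif TGANTCA was in Fgf13 and Spry3 (7.33% of all) and the CRE motif TGACGTCA in Areg (1.83% of all). No 2 of these motifs overlapped in the printed stretches. Fgf2, Fgfr3 and Pdgfc held none of the 4 in these windows.

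Genes that carry the signal inside the cell were counted on 5 lists, of which 83 genes are not among the 48. Of these 83, 14 were higher, 16 were lower and 53 did not pass, next to 11.97% higher and 19.7% lower of all probe sets. After quantile normalization 21 were higher and 10 lower. On the list of adaptors, RAS, RAF, MEK and ERK, 1 of 19 genes was higher and 7 were lower, with a median difference of -0.23, where 19.7% of all probe sets were lower. The largest was Rras2, a RAS-related GTPase, with 14.16, 14.20, 14.10 and 14.32 on the IL-4 arrays and 16.41, 15.86, 15.82 and 15.13 on the PBS arrays (-1.61 ± 0.22, adjusted p = 5.49e-04). Frs2, the adaptor that couples FGF receptors to RAS, was lower by 0.58 on the log2 scale (adjusted p = 0.00899). It had 10.95, 11.03, 11.26 and 11.12 with IL-4, against 11.85, 11.50, 11.88 and 11.45 with PBS. The kinases Map2k1 (-0.73), Map2k2 (-0.60) and Araf (-0.55), the adaptor Shc4 (-0.70) and Nras (-0.34) were lower too, and Gab2, an adaptor to PI3K, was higher (0.56). On this list 9 of the 19 genes did not overlap between treatments, next to 32.8% of all probe sets. The 8 named here, picked by their adjusted p, were among these 9. Shc4 passed in 2 of the 8 fits that left out an array.

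On the list of PI3K, AKT and PLC gamma genes, 4 of 13 were higher and 1 was lower. Of all probe sets, 11.97% were higher and 19.7% lower. The median of the list was 0.41. By the methods' t-test 1 of the 13 was higher, and without any one of the IL-4 arrays 2 were. Pik3r1 and Plcg2 each passed in 1 of the 8 fits that left out an array. The higher ones were the PI3K subunits Pik3cd (0.83) and Pik3r1 (0.52), the adaptor Irs1 (0.65) and Plcg2 (0.57). Pdpk1, the kinase that activates AKT, was lower, with 8.53, 8.88, 8.55 and 8.28 on the IL-4 arrays and 10.05, 9.87, 9.68 and 9.97 on the PBS arrays (-1.33 ± 0.14, adjusted p = 1.79e-04). Pik3cd and Plcg2 are also known as genes of microglia and other myeloid cells, whose markers are given above. All 4 higher genes had their highest PBS value on array 4, which had the highest microglial average of the PBS arrays (9.96). The IL-4 arrays averaged 9.22 to 9.33 on the microglial list, and a link between these levels was not tested. Without PBS arrays 1 and 4 the median was 0.09, with 5 genes higher and 1 lower.

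Coreceptors, ligand carriers and sheddases were split, with 2 of 19 higher (Plat and the heparan sulphate carrier Sdc2, 0.66) and 3 lower. Of all probe sets, 11.97% were higher and 19.7% lower. Gpc1, a glypican that helps FGF bind its receptor, had 10.74, 10.78, 10.78 and 10.82 with IL-4, against 11.83, 11.65, 11.82 and 11.68 with PBS (-0.96 ± 0.10, adjusted p = 1.50e-04). Adam17, the sheddase that releases Tgfa, was lower (-0.40), and Gpc4 (-0.77) was lower under the limit, and they passed in 2 and 3 of the 8 fits that left out an array. On the list of other receptor tyrosine kinase and ERK inhibitors, 0 of 15 were higher and 2 were lower in limma, next to the same shares. In this list 2 and 2 had an unadjusted p under 0.05. The 2 lower ones were Inppl1, a lipid phosphatase acting on PI3K products (-0.95, adjusted p = 1.79e-04), and Lrrc4 (-0.54). By the methods' t-test 0 and 2 passed, and after quantile normalization 2 and 2.

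Transcripts known to rise with ERK activity were measured for 21 genes, of which 4 are Sprouty or Spred genes counted above. Of the 21, 8 were higher and 4 were lower, with a median of 0.38, next to 11.97% higher and 19.7% lower of all probe sets. Ccnd1, cyclin D1, had 13.59, 13.71, 13.61 and 13.60 with IL-4, against 11.24, 11.60, 11.45 and 12.39 with PBS (1.96 ± 0.21, adjusted p = 1.68e-04). The early response genes Ier3 (1.56), Egr1 (1.06), Egr2 (0.52), Junb (0.61) and, under the limit, Egr3 (0.57) were higher, as were Myc (0.71) and Spry2. The PBS mean of Ier3 was under the limit. By the methods' t-test 6 of the 21 were higher, and with each array left out in turn 6 to 10 were. Ccnd1, Ier3 and Spry2 passed in all 8 of the fits that left out an array. For Egr1, Egr2, Egr3, Junb and Myc this was not examined gene by gene. For Ccnd1, Ier3, Myc, Egr2, Egr3 and Junb the highest PBS value was on array 4, which had the highest microglial average of the PBS arrays, and for Egr1 the lowest was. Whether the levels of these genes go with the microglial level was not tested.

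The 4 lower ones were Spry4, Fos (-0.66), the ERK phosphatase Dusp6 (-0.57) and the ETS factor Etv5 (-0.46). Of the 8 fits that left out an array, Spry4 passed in all, Dusp6 in 3, Fos in 2 and Etv5 in 1, and by the methods' t-test 1 of the 21 was lower. Dusp6 and Etv5 are, with the Sprouty genes, among the transcripts that FGF signals are best known to raise. Dusp6 had 9.56, 9.56, 9.68 and 9.55 with IL-4, against 9.95, 9.75, 10.18 and 10.74 with PBS (adjusted p = 0.039). Etv5 had 7.27, 6.99, 7.18 and 6.85 with IL-4, against 7.97, 7.38, 7.42 and 7.36 with PBS (adjusted p = 0.049). Both lay lower on every IL-4 array than on any PBS array. After quantile normalization 11 of the 21 were higher and 1, Spry4, was lower. Dusp6 was then at -0.41 (adjusted p = 0.118), Etv5 at -0.43 (adjusted p = 0.059) and Fos at -0.49 (adjusted p = 0.119).

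**Figure D3:**
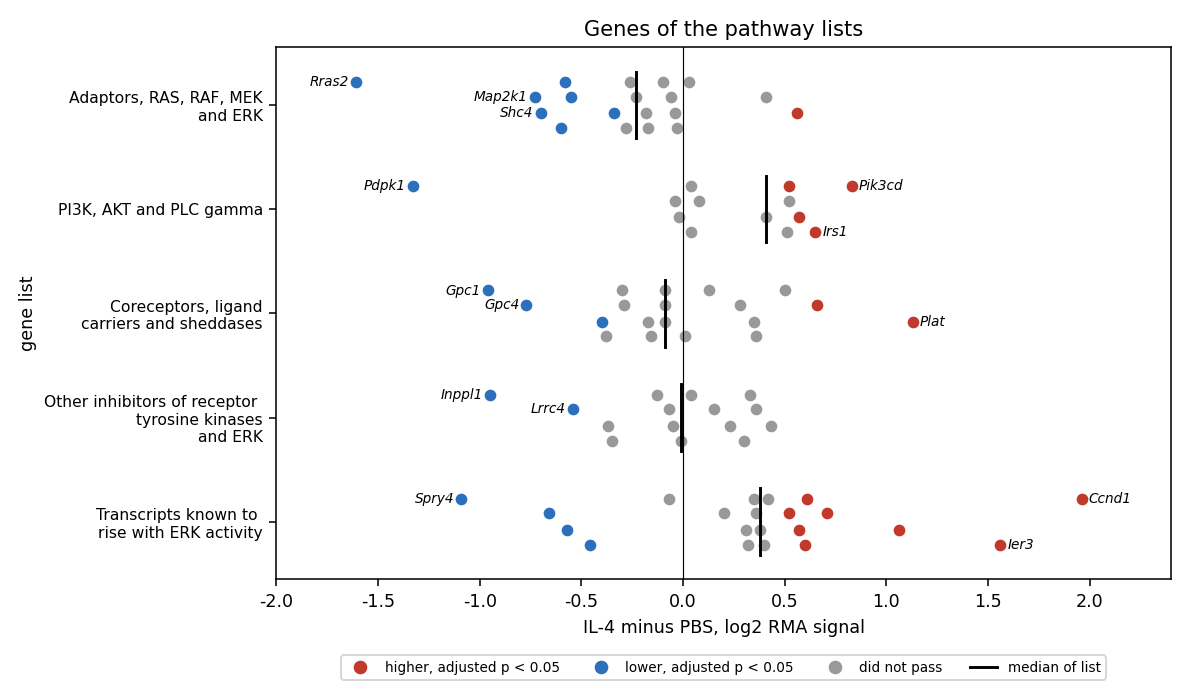
Differences of the genes on 5 pathway lists (x axis, IL-4 minus PBS, log2 RMA signal; 1 point per gene, 4 arrays per treatment). Red points were higher and blue points lower with IL-4 at an adjusted p under 0.05, grey points did not pass, and black lines are list medians, from -0.23 for the RAS, RAF, MEK and ERK list to 0.41 for the PI3K list.

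The IL-4 arrays were more alike than the PBS arrays. Over the 48 genes the median SD was 0.15 with IL-4 and 0.24 with PBS, and for 33 of them (68.8%) it was the higher with PBS, as for 67.6% of all probe sets. Of the 48, 5 genes, and of all probe sets 4.06%, had the same value to 2 decimals on 3 or 4 IL-4 arrays, against 0 and 0.0992% on PBS arrays. Of the 22 genes above the limit, the highest PBS value was on array 1 for 8, on array 2 for 3, on array 3 for 6 and on array 4 for 5. With the IL-4 arrays averaged to 1 sample that is assumed to vary like the PBS arrays, no call among the 48 genes held in limma. Nearly all calls over the whole array were lost as well, so this loss is not particular to the 48 genes. Averaging leaves each difference of means unchanged by construction. Fgfr1, Fgfr3, Pdgfc, Spry2 and Spry4 thus kept -1.01, -0.99, 0.95, 0.60 and -1.09, which says nothing of how stable these differences are.

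**Figure D4:**
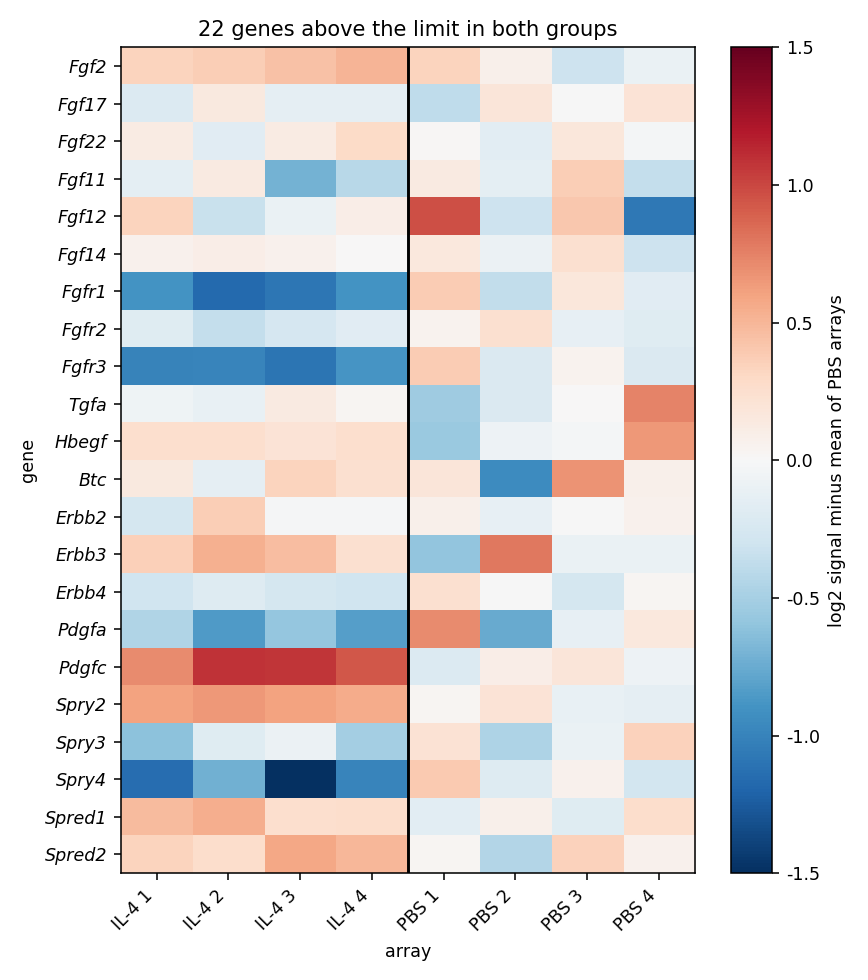
log2 signal of the 22 genes above the limit (y axis) on the 4 IL-4 arrays and the 4 PBS arrays (x axis), each minus the gene's mean over the PBS arrays (colour scale from -1.5 to 1.5). The IL-4 columns resemble each other, with Fgfr1, Fgfr3 and Spry4 blue and Pdgfc and Spry2 red in all 4, whereas Fgf12, Tgfa, Btc, Erbb3 and Pdgfa vary in colour among the PBS columns.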

How the data were processed

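RNA of 4 IL-4 and 4 PBS cultures was read on Affymetrix Clariom S rat arrays, 1 per culture, and the methods state biologic replicates. The labels name no separate litters, so p-values measure the spread between these cultures, which may be technical. The deposited values are log2 signals per probe set, which the authors corrected for background, normalized between arrays and summarized by RMA. The submitters' processing notes name Affymetrix Expression Console, Transcriptome Analysis Console 4.0 and the rn6 genome. Arrays have no read depth, and their number and spread limit the precision. All 8 value columns were used.

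Genes were named where the array's annotation gives a single symbol (15049 of 23188 probe sets), and 8139 were tested without a name. The genes and lists were chosen with earlier results of these data known. Every gene of the rule was named, those past the threshold with all values, and of each pathway list the 3 with the largest difference past the threshold or, where 5 or fewer passed in a direction, all of them. Frs2, Map2k2, Araf, Nras, Egr1, Egr2, Egr3, Junb and Myc were named outside these choices. Frs2, Dusp6 and Etv5 were given with all values after these had been seen, as were the marker genes that are named. IL-4 was compared with PBS in limma 3.58.1 (R 4.3.3; lmFit and eBayes) with Benjamini-Hochberg adjustment over all probe sets at 0.05, after a test on simulated data. Confidence intervals are at 95%. Promoters came from RefSeq (GRCr8), whose build differs from that of the array, so probe sets have no coordinates here. Python 3.11.15 served for the tables (numpy 2.4.6, pandas 2.3.3, scipy 1.17.1) and the plots (matplotlib 3.10.9).

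The alternatives were quantile normalization, subtraction of array medians, removal of the dimmest 40 percent of probe sets, array weights, a robust prior with an intensity trend, averaging the IL-4 arrays to 1 sample, a block for the replicate number, the methods' t-test of equal variance with adjustment, and each array left out in turn. Leaving out PBS arrays 1 and 4 together was added after seeing the data.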

Additional observations from a re-analysis of the deposited data

Results flagged for a closer look

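The search covered the 48 genes and the pathway genes picked by the choices stated above. Frs2, Map2k2, Araf, Nras, Egr1, Egr2, Egr3, Junb and Myc were not searched. The 4 arrays of each treatment were examined for 1 array far from the other 3. This was measured as its gap to the nearest divided by the whole range. Of 138 such groups, 16 passed Dixon's 95% critical value, and chance flags about 1 in 20. Of the 16, 14 were IL-4 groups and 2 were PBS groups. Values given to 2 decimals that repeat on the other 3 arrays make such a gap large even where it is small in size.

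Among IL-4 arrays the value that stood apart was that of array 1 for Fgf6 (3.46), Fgf19 (3.14) and Pik3cd (6.95). It was that of array 2 for Fgf8 (3.91), Fgf9 (5.56), Fgf10 (3.24), Ereg (3.60) and Ccnd1 (13.71). On array 3 it was Fgf18 (4.21), Hbegf (11.08), Nrg1 (5.15) and Dusp6 (9.68), and on array 4 it was Fgf3 (4.71) and Fgf23 (3.03). The widest gap was that of Fgf10, whose other IL-4 arrays lay between 4.34 and 4.52. Without IL-4 array 2 its difference was 0.43 (adjusted p = 0.0316), against 0.14 (adjusted p = 0.694) with all arrays. Among PBS arrays, array 1 stood apart for Etv5 (7.97) and array 2 for Inppl1 (12.73).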

How the results depend on the processing

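Among the 48 genes and the pathway genes searched above, no difference changed its direction under any of the 17 alternatives where it had passed. Among the 48 genes, 9 were higher and 8 lower in the fit reported. These counts were 4 and 3 of 22 with dim probe sets left out, 0 and 0 with the IL-4 arrays averaged, and 5 and 6 by the methods' t-test. Leaving out each array in turn gave 4 to 7 higher and 6 to 9 lower, with 5 higher without IL-4 array 2, 5 without IL-4 array 3 and 4 without IL-4 array 4. Of the 83 pathway genes 14 were higher and 16 lower, against 0 and 0 with the IL-4 arrays averaged, 9 higher by the t-test, and 21 higher and 10 lower after quantile normalization. With each array left out 10 to 19 were higher and 9 to 16 lower, with 9 lower without IL-4 array 1, 10 without array 2, 10 without array 3 and 9 without array 4, and 10 without PBS array 3. Without PBS arrays 1 and 4 the counts were 6 and 7 of 48, and 20 and 12 of 83. Over all probe sets quantile normalization gave 3279 higher and 3582 lower, against 2776 and 4563. Fgfr1, Fgfr3, Pdgfc, Spry2 and Spry4 passed in 16 of the 17 alternatives, all but the averaged IL-4 arrays, and Fgf2 passed in 7.

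With the replicate number as a block, 8 of the 48 were higher and 8 lower, and 16 and 14 of the 83. The numbers do not pair the arrays, since the deviations of arrays of equal number correlated between -0.02 and 0.01 over probe sets and none correlated best with its own number. A dimmer probe set could not be tried, as each of the 48 genes has 1. Levels near the limit of 5.41 bound what can be said of 26 of them.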
